A study of Mus musculus with 10 samples.

Results

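Splicing factor and small nuclear ribonucleoprotein (snRNP) genes were examined in spindle and cytoplasm fractions of mouse oocytes. They were taken as the genes whose platform symbol begins with Snrp, Srsf, Sf3a, Sf3b, Prpf or U2af. Of 46 symbols that matched, 43 had a probe set assigned to that gene alone, out of 18193 such genes on the array, and the brightest of these over all 10 arrays gave the value of the gene. Snrpa, Snrpd1 and Snrpd2 had only probe sets shared with other genes and were not analysed here, and Srsf12 was too dim to be kept. The other 42 genes were tested, among 12710 genes in all.

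The samples were 3 arrays of the spindle-chromosome complex (SCC), 4 arrays of the cytoplast and 3 arrays of the MII oocyte. The SCC is the meiotic spindle with its chromosomes, drawn out of the oocyte by microsurgery, the cytoplast is the oocyte left after that removal, and the MII oocyte is the intact egg, which waits in metaphase of meiosis II for fertilisation. All came from B6D2F1 female mice given eCG and, 48 h later, 5 IU of hCG, with oocytes collected 16 h after the second hormone and stripped of cumulus cells with hyaluronidase. The age of the animals is not given in the labels used here. Up to 50 ng of RNA passed through 2 rounds of cDNA synthesis, and 10 µg of cRNA went onto each array. Values are therefore relative amounts within a sample, and fewer cells or less RNA per cell in a sample cannot be told apart. Biological replicates are stated in the titles, with no word on which animals or pools they came from, so p-values measure only the spread between these samples.

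The spliceosome removes introns from pre-mRNA in the nucleus. It is built on snRNPs, most of which hold a small nuclear RNA in a ring of Sm proteins, and the U2 snRNP with its SF3a and SF3b subcomplexes recognises the branch point of the intron while U2AF binds the 3′ splice site. SR proteins bind exons and steer splice site choice, and many Prp proteins serve the later steps of assembly and catalysis. A fully grown oocyte is transcriptionally silent and carries stored maternal transcripts, among them those that encode this machinery.

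The arrays had medians of 15.6 to 16.6 intensity units, while their 95th percentiles ran from 526 to 797. These percentiles were 623 to 797 in the SCC, 526 to 634 in the cytoplast and 568 to 711 in the MII oocyte. The labelled cell type was borne out by its markers, since 13 of 15 oocyte genes exceeded the background level on every array. Of 17 cumulus and granulosa cell genes, 0 did so on every array and 1, Nr5a2, on any. Their summed intensity was 555 to 669 in the SCC, 557 to 660 in the cytoplast and 543 to 666 in the MII oocyte. The background level of an array was the 95th percentile of 37 genes of other tissues and lay between 91.2 and 158. By that measure, 22 of the 42 splicing genes were above background on every array, 9 on some arrays and 11 on none. The number of arrays limits the precision throughout.

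The comparison of the SCC with the cytoplast asks which transcripts are more abundant at the spindle than in the rest of the oocyte. Snrpb2 and Snrpa1, which encode proteins specific to the U2 snRNP, and Sf3a3, Sf3a1 and Sf3b6, which encode subunits of its SF3a and SF3b subcomplexes, rose 1.38-fold to 1.86-fold in the SCC. Prpf4b, a kinase that acts on the spliceosome, rose 1.5-fold, and U2af1, the small subunit of U2AF, was the remaining gene to pass. In all, 7 of 42 genes (16.7%) were higher in the SCC at an adjusted p below 0.05 by limma, against 8.03% of all genes tested. The share varied with brightness. Of the 2833 genes with a mean log2 intensity above 8, 20.5% were higher, as were 5 of the 21 splicing genes among them. At or below 8, 4.44% of all genes and 2 of 21 splicing genes were higher. None of the 42 was lower, against 0.275% of all genes, and 20 of the 42 (47.6%) had an unadjusted p under 0.05 in either direction, against 22.3% of all genes. The difference was positive for 31 of 42 genes (73.8%), against 54.0% of all genes, and the median log2 difference was 0.19, against 0.02 for all genes. The arrays of both groups did not overlap for 17 genes that were higher in the SCC (40.5%), against 15.5% of all genes, and for 3 that were lower (7.14%), against 5.86%.

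The count depended on the arrays and on their scaling. It was 1, Snrpb2, without SCC array 2 (1.32% of all genes higher) and 2, Snrpb2 and U2af1, without SCC array 3 (1.2%). It was 2, Snrpb2 and Sf3a3, without cytoplast array 1 (2.97%) or 2 (3.44%). Without MII oocyte array 3, which enters only through the shared estimate of the spread, it was 11 (10.2%). After cyclic loess or quantile normalization of the deposited values, 1 gene, Snrpb2, was higher and 1, Sf3b2, was lower, in place of 7 higher and 0 lower, and the difference was positive for 26 of 42 genes under either (all genes 47.8% and 44.3%). The 3′ to 5′ difference of Actb, a sign of RNA quality, was 3.42 ± 0.20 log2 units in the SCC and 4.62 ± 0.69 in the cytoplast (SD, n = 3 and 4, exact two-sided permutation p = 0.0571). The arrays did not overlap, at 3.27 to 3.65 in the SCC and 3.66 to 5.29 in the cytoplast. No split of 3 against 4 arrays is more extreme in that direction. For Gapdh the 3′ to 5′ difference came to 2.87 ± 0.48 in the SCC, against 3.17 ± 0.56 in the cytoplast (p = 0.457 by the same exact test). The part of RNA quality in the result was not tested.

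**Figure D1:**
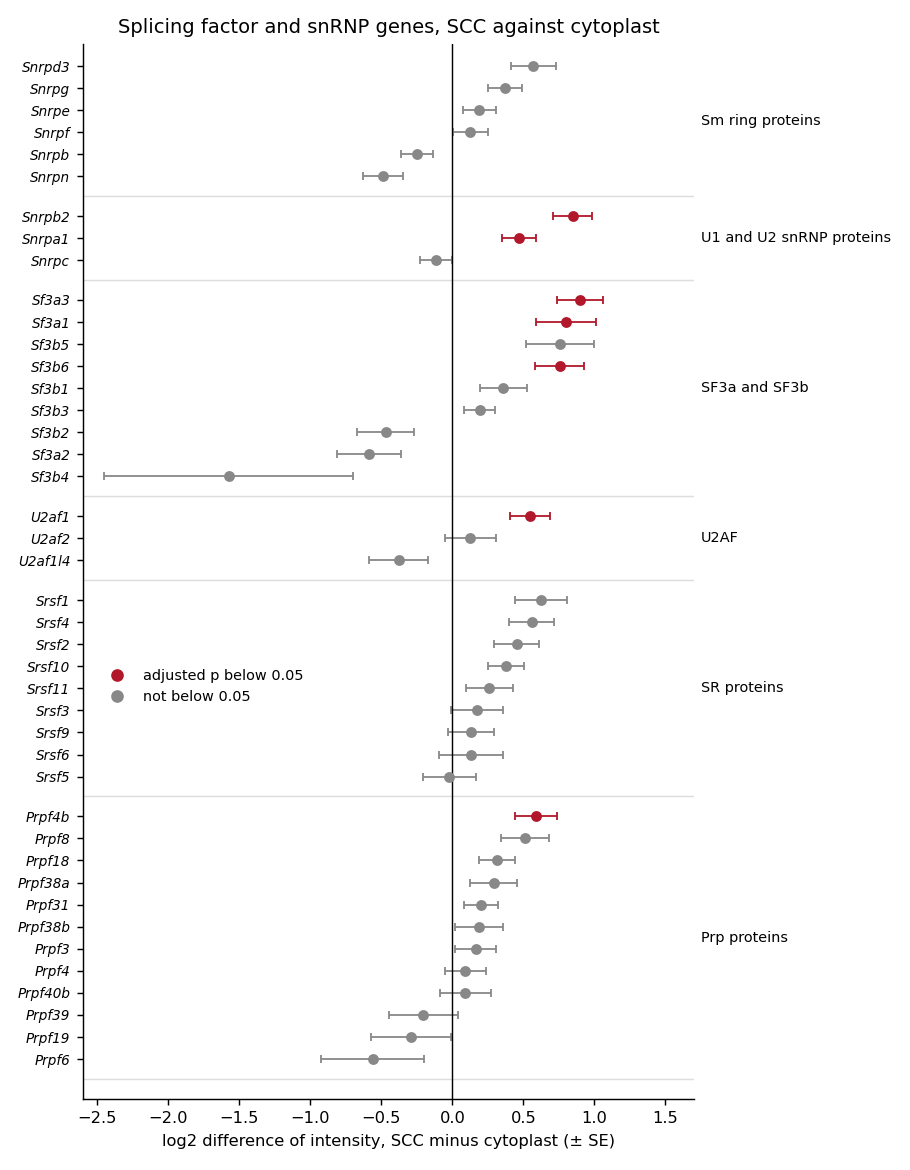
Log2 difference of intensity, SCC minus cytoplast, with its standard error, for the 42 splicing genes grouped by role; red points have an adjusted p below 0.05 by limma, and 12 of the grey ones stand for genes not well above background in either group. The 7 red points all lie to the right of 0, and Sf3b4 has the lowest value (-1.57) with the longest error bar.

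Among the U1 and U2 snRNP proteins, 2 of 3 genes were higher in the SCC (all genes 8.03%), with a median log2 difference of 0.47 (all genes 0.02). Snrpb2 encodes the U2 snRNP protein B″, which binds U2 small nuclear RNA. Its intensity was 672, 803 and 832 on the SCC arrays, against 390, 380, 411 and 537 on the cytoplast arrays and 559, 542 and 559 on the MII oocyte arrays. Every SCC array stood above every cytoplast and MII oocyte array. The mean of 769 ± 85.2 in the SCC compared with 430 ± 72.8 in the cytoplast (SD, n = 3 and 4), a log2 difference of 0.85 ± 0.14 (SE; limma adjusted p = 0.0074). Snrpa1 encodes A′, the partner of B″ on the same RNA. Snrpa1 measured 3436, 4383 and 4220 in the SCC, 2798, 2611, 3103 and 3043 in the cytoplast, and 3201, 3265 and 3347 in the MII oocyte. The lowest SCC array again exceeded the highest of the other groups, and the log2 difference from the cytoplast was 0.47 ± 0.12 (SE; limma adjusted p = 0.037). Snrpc, a U1 snRNP protein, was not well above background on any array.

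SF3a, the subcomplex that joins the U2 snRNP as it matures, had 2 of its 3 genes higher in the SCC (all genes 8.03%). Sf3a3 read 384, 481 and 508 in the SCC, 229, 279, 242 and 230 in the cytoplast, and 208, 293 and 317 in the MII oocyte. It averaged 458 ± 65.3 in the SCC and 245 ± 23.3 in the cytoplast (SD, n = 3 and 4), with a log2 difference of 0.90 ± 0.16 (SE; limma adjusted p = 0.0107). No SCC array overlapped either other group. Sf3a1 gave 370, 535 and 653 in the SCC, 262, 265, 347 and 295 in the cytoplast, and 255, 412 and 331 in the MII oocyte. The SCC arrays spread widely yet all lay above the cytoplast, while SCC array 1 fell inside the MII oocyte range. Its log2 difference was 0.80 ± 0.21 (SE; limma adjusted p = 0.0411). Sf3a2 ran the other way, at 402, 419 and 294 in the SCC, against 666, 643, 519 and 416 in the cytoplast and 726, 397 and 574 in the MII oocyte. Its groups overlapped by 1 pair of close values, 419 in the SCC and 416 in the cytoplast, and it did not pass (log2 difference -0.59 ± 0.23 SE, limma adjusted p = 0.161).

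SF3b, which holds the branch point adenosine, had 1 gene higher among 6 (all genes 8.03%). SF3a and SF3b together gave 3 of 9, with a median log2 difference of 0.36 (all genes 0.02). Sf3b6 encodes the small subunit that lies at the branch point. It measured 460, 533 and 646 in the SCC, 324, 339, 336 and 287 in the cytoplast, and 245, 399 and 341 in the MII oocyte. Each SCC array was above all arrays of the other groups, and the log2 difference from the cytoplast was 0.76 ± 0.17 (SE; limma adjusted p = 0.0245). Sf3b5, another small subunit, read 102, 129 and 226 in the SCC, against 89.5, 77.3, 77.4 and 97 in the cytoplast and 73.5, 65.1 and 98.4 in the MII oocyte. No cytoplast array was well above background for it, so its fold between the group means is given only as at least 1.44. Sf3b5 did not pass (limma adjusted p = 0.0851). Sf3b1, the scaffold of SF3b, measured 2521, 2907 and 3417 in the SCC, 2511, 1837, 2428 and 2420 in the cytoplast, and 3271, 2233 and 2847 in the MII oocyte. Its SCC and cytoplast arrays were separate by a narrow margin (log2 difference 0.36 ± 0.17 SE, limma adjusted p = 0.258). Sf3b3, which also belongs to the core, differed by 0.19 ± 0.11 (SE, limma adjusted p = 0.372). It lay near background, which it exceeded on 1 SCC array and 1 cytoplast array.

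Sf3b2 and Sf3b4, which bind each other within SF3b, had the negative values of the subcomplex. Sf3b2 measured 747, 981 and 998 in the SCC, against 1439, 1166, 1325 and 1083 in the cytoplast and 1830, 973 and 1279 in the MII oocyte. All SCC arrays were below all cytoplast arrays, but the log2 difference of -0.47 ± 0.20 (SE) missed the threshold (limma adjusted p = 0.214). It passed after cyclic loess (-0.74, limma adjusted p = 0.0473) and quantile normalization (-0.78, limma adjusted p = 0.0435). Sf3b4 read 11689, 2787 and 782 in the SCC, 10193, 13400, 13350 and 3227 in the cytoplast, and 2032, 12533 and 2053 in the MII oocyte. These values split within every group, with 1 array of the SCC, 3 of the cytoplast and 1 of the MII oocyte above 10000, so the log2 difference of -1.57 had an SE of 0.88 (limma adjusted p = 0.36). All 5 of these arrays were among the 6 with dimmer spike-in controls, where Sf3b4 ran from 2787 to 13400, and the 4 arrays with brighter controls read 782 to 3227. With the spike-in level as covariate, Sf3b4 was lower in the SCC (-1.69, limma adjusted p = 0.0133), as it was with the class as block (-1.37, limma adjusted p = 0.0342), but it did not pass within the dimmer class (-1.10, limma adjusted p = 0.156). These intensities of Sf3b4 also come from a probe set of the _x_at class. The other probe set of Sf3b4 gave 363, 423 and 392 in the SCC and 351, 306, 305 and 467 in the cytoplast, with no such split (log2 difference 0.16, limma adjusted p = 0.703).

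**Figure D2:**
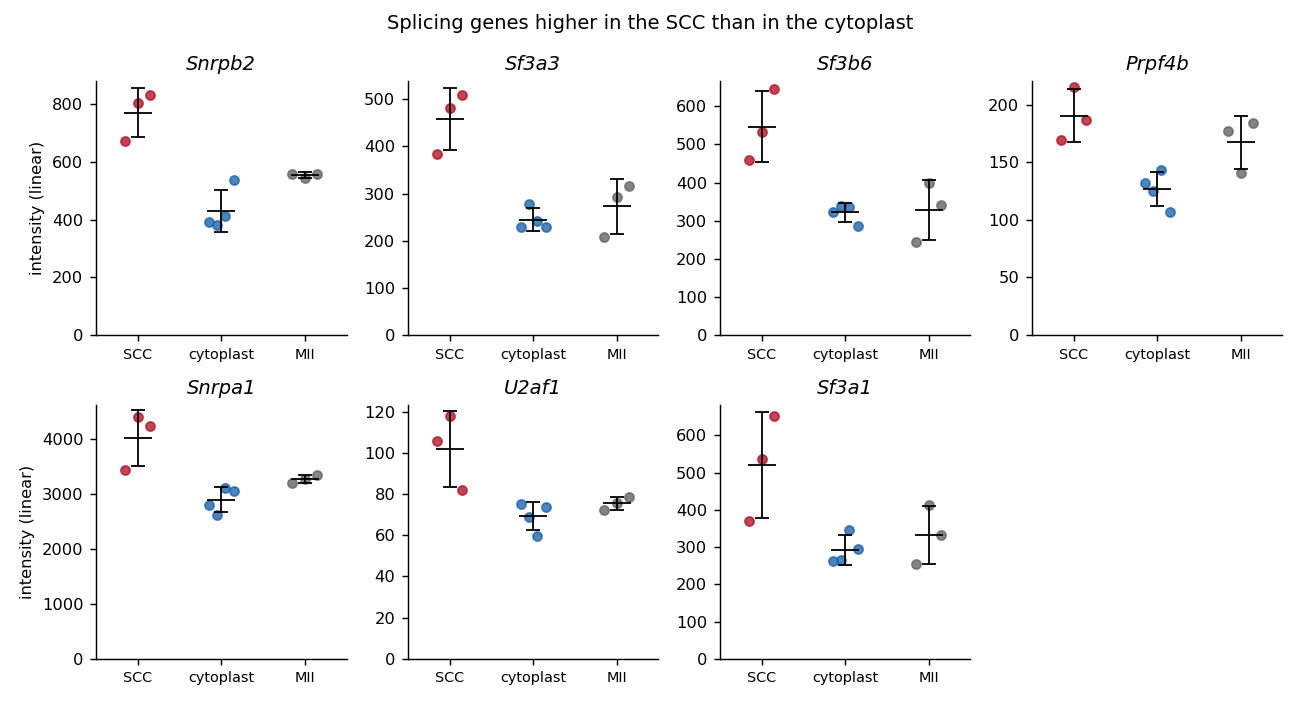
Intensity (linear axis from 0) of the 7 splicing genes that passed between the SCC and the cytoplast, 1 point per array of the SCC (red), cytoplast (blue) and MII oocyte (grey); bars give the mean and SD. The SCC points lie above all cytoplast points in each panel, and the MII oocyte points overlap the SCC in the panels of Prpf4b and Sf3a1.

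The promoters of the 3 genes with the smallest adjusted p, Snrpb2, Sf3a3 and Sf3b6, are shown as those of the members with the clearest difference between the SCC and the cytoplast. Each spans 250 bases before to 50 bases after the start of the gene in RefSeq (build GRCm38.p6), on the + strand, at chr2:143062819-143063118, chr4:124714611-124714910 and chr12:4817358-4817657 in that order. Capitals mark CCGGAA on either strand, which reads TTCCGG on the opposite strand. These letters contain GGAA, the core bound by ETS transcription factors. A run that joins the reading of both strands would be marked as 1 stretch.
Snrpb2 promoter: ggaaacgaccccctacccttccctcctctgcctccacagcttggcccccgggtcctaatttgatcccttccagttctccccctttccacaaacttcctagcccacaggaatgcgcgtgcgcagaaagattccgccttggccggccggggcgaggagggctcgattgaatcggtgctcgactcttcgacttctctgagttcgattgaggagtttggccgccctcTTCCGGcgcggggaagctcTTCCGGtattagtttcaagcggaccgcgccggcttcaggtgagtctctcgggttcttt
Sf3a3 promoter: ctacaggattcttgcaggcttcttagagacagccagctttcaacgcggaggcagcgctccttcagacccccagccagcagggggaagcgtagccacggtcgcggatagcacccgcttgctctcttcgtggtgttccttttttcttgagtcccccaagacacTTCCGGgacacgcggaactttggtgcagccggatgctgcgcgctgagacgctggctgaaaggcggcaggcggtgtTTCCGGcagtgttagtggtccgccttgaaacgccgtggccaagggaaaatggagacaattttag
Sf3b6 promoter: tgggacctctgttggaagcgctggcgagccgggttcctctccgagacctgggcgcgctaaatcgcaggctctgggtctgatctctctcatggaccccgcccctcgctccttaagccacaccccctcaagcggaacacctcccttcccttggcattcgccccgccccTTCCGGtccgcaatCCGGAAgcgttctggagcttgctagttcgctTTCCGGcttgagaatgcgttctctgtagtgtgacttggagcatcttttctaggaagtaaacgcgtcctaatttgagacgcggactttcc
Snrpb2 and Sf3a3 each held 2 matches and Sf3b6 held 3. CCGGAA stood in 27 of 48 promoters of the 37 tested genes that had one in the table (56.2%), against 14.9% of 32851 promoters. Promoters with at least 15 CpG dinucleotides held it in 63.4% of 41 cases for splicing genes, against 29.7% of 11378. Of the 8 promoters of the 7 genes that passed, 5 held it (62.5%). A match is a description of the letters, not a binding site or a cause.

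Among the Sm ring proteins none of 6 genes passed. An unadjusted p under 0.05 was found for 4 of them, Snrpd3 and Snrpg with a positive and Snrpb and Snrpn with a negative difference (22.3% of all genes). Their median log2 difference was 0.16, and -0.05 after cyclic loess and 0.05 after quantile normalization. Snrpd3 came closest among the positive ones, with 367, 401 and 454 in the SCC, 284, 272, 287 and 252 in the cytoplast, and 240, 259 and 380 in the MII oocyte. The SCC and cytoplast did not overlap (log2 difference 0.57 ± 0.16 SE, limma adjusted p = 0.0518). Snrpg read 5752, 7045 and 6446 in the SCC, against 4868, 5043, 5178 and 4723 in the cytoplast and 4458, 5643 and 5207 in the MII oocyte. It too was separate from the cytoplast on every array (0.37 ± 0.12 SE, limma adjusted p = 0.0924). Snrpe overlapped, with 6645, 7767 and 7782 in the SCC, 6481, 6006, 6241 and 7219 in the cytoplast, and 7013, 6277 and 7203 in the MII oocyte (0.19 ± 0.12 SE, limma adjusted p = 0.412). The difference was positive for 4 of the 6 genes of the ring, against 54.0% of all genes. Snrpb, which encodes SmB, was at 106, 97.2 and 112 in the SCC, 119, 125, 116 and 138 in the cytoplast, and 129, 112 and 129 in the MII oocyte. Each SCC array was below each cytoplast array, without passing (-0.25 ± 0.11 SE, limma adjusted p = 0.239). Snrpb lay near background, which it exceeded on 1 SCC array and on all 4 cytoplast arrays. Snrpn, a close relative of Snrpb, was not well above background on any array, and its limma adjusted p was 0.0597.

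U2AF was represented by U2af1, its large partner U2af2 and the U2af1 relative U2af1l4, with 1 of 3 higher in the SCC (all genes 8.03%). Their median difference was 0.13, and turned to -0.14 and -0.16 after cyclic loess and quantile normalization. U2af1 was dim, at 106, 118 and 81.8 in the SCC, 75, 68.9, 59.6 and 73.8 in the cytoplast, and 72.5, 75.5 and 78.7 in the MII oocyte. It exceeded background on 1 SCC array and on no cytoplast array, so that its difference is given only as at least 1.01-fold (limma adjusted p = 0.0394). U2af2 was at 1044, 1077 and 1185 in the SCC, against 1065, 818, 859 and 1376 in the cytoplast and 1105, 841 and 1089 in the MII oocyte. These groups overlapped (log2 difference 0.13 ± 0.18 SE, limma adjusted p = 0.771). U2af1l4 had a negative difference (limma adjusted p = 0.354). It exceeded background on 3 cytoplast arrays and on no SCC array, and no fold is given for it.

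The SR proteins included no gene that passed. The difference was positive for 8 of 9 (median 0.26), against 54.0% of all genes. An unadjusted p under 0.05 was found for 4 of 9 (44.4%, all genes 22.3%). The number positive was 6 of 9 after cyclic loess and 5 of 9 after quantile normalization (all genes 47.8% and 44.3%). Srsf4 read 726, 769 and 771 in the SCC, 489, 486, 417 and 696 in the cytoplast, and 627, 551 and 561 in the MII oocyte. The SCC arrays were the highest of all 10, and the log2 difference was 0.56 ± 0.16 (SE; limma adjusted p = 0.0555). Srsf2 measured 165, 202 and 178 in the SCC, 140, 141, 156 and 98.6 in the cytoplast, and 182, 164 and 153 in the MII oocyte (0.45 ± 0.16 SE, limma adjusted p = 0.121). Srsf10 was at 163, 174 and 161 in the SCC, against 149, 111, 123 and 131 in the cytoplast and 172, 146 and 173 in the MII oocyte (0.38 ± 0.12 SE, limma adjusted p = 0.0996). For both, the SCC was separate from the cytoplast and mixed with the MII oocyte. Srsf3 (0.17 ± 0.18 SE, limma adjusted p = 0.68) and Srsf6 (0.13 ± 0.22 SE, limma adjusted p = 0.817) showed overlapping groups. Srsf1, a founding SR protein, was not well above background on any array (limma adjusted p = 0.0649).

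Of the 12 Prp genes, 1 was higher (all genes 8.03%), with a median log2 difference of 0.18 (all genes 0.02). Prpf4b gave 169, 215 and 187 in the SCC, 132, 125, 143 and 107 in the cytoplast, and 177, 141 and 184 in the MII oocyte. The SCC was above every cytoplast array and within the MII oocyte range on array 1 (log2 difference from the cytoplast 0.59 ± 0.14 SE, limma adjusted p = 0.0324). Prpf18, which acts at the second catalytic step, read 274, 290 and 365 in the SCC, against 242, 226, 262 and 261 in the cytoplast and 269, 269 and 300 in the MII oocyte. It was separate from the cytoplast but did not pass (0.31 ± 0.13 SE, limma adjusted p = 0.179). Prpf8, the core protein around the catalytic centre, was not well above background in the SCC or the cytoplast (limma adjusted p = 0.0964).

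Prpf6, a bridge within the tri-snRNP, and Prpf19, a ubiquitin ligase of the spliceosome, had negative values. Prpf6 measured 3133, 2802 and 3835 in the SCC, 5283, 3895, 3518 and 7096 in the cytoplast, and 6754, 2367 and 7473 in the MII oocyte. Prpf19 measured 3636, 4011 and 3773 in the SCC, 5467, 3519, 4007 and 6091 in the cytoplast, and 6261, 2553 and 5363 in the MII oocyte. For both genes, cytoplast arrays 1 and 4 and MII oocyte arrays 2 and 4 were high and MII oocyte array 3 was low. The log2 differences were -0.56 ± 0.36 (SE; limma adjusted p = 0.443) for Prpf6 and -0.29 ± 0.28 (SE; limma adjusted p = 0.643) for Prpf19. Both values come from _x_at probe sets. A dimmer probe set of Prpf6 gave -0.22 (limma adjusted p = 0.571), and 2 of Prpf19 that were above background gave 0.02 (limma adjusted p = 0.975) and 0.01 (limma adjusted p = 0.991).

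**Figure D3:**
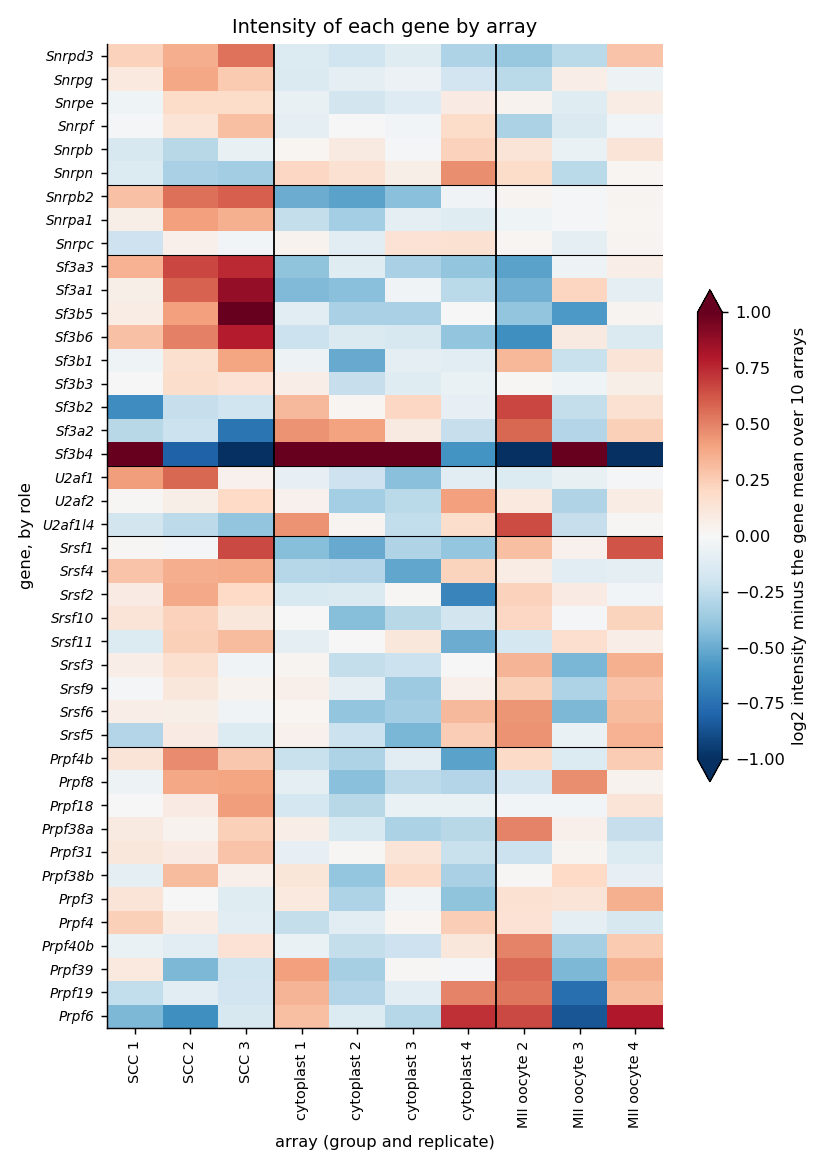
Log2 intensity of each of the 42 splicing genes on each array, minus the mean of that gene over 10 arrays, with genes ordered by role and arrays by group; the colour scale ends at 1 log2 unit either way, which Sf3b4 exceeds. Snrpb2, Snrpa1 and Sf3a3 are red on all 3 SCC arrays, and Sf3b4 switches between extremes within each group.

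Several genes were represented by more than 1 probe set, which gives other measurements from the same arrays. Of 93 kept probe sets, 12 were higher in the SCC (12.9%), against 6.74% of all probe sets, and 0 were lower by limma. These 12 belonged to 11 genes, and 5 of them were not the value of their gene. Snrpa1 had such a second one, with 198, 237 and 213 in the SCC and 105, 147, 160 and 128 in the cytoplast (log2 difference 0.69 ± 0.15 SE, limma adjusted p = 0.0218). Srsf2 had another, with 156, 195 and 274 in the SCC and 101, 122, 144 and 84.4 in the cytoplast (0.88 ± 0.22 SE, limma adjusted p = 0.0357). Probe sets of Srsf1, Srsf6 and Srsf10 also passed but were not well above background in either group. The probe sets of a gene did not always move alike, since 17 of the 27 genes with more than 1 kept had all of 1 sign. For Snrpb2, a dimmer probe set read 329, 323 and 425 in the SCC and 247, 302, 289 and 297 in the cytoplast (0.33 ± 0.14 SE, limma adjusted p = 0.209). For Sf3b6, a dimmer one gave 0.57 (limma adjusted p = 0.081). The dimmer probe set of Sf3a3 was not well above background in either group (limma adjusted p = 0.816). The same held for both dimmer probe sets of Sf3a1, for both of Prpf4b and for the 2 dimmest of Srsf2, none of which passed.

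**Figure D4:**
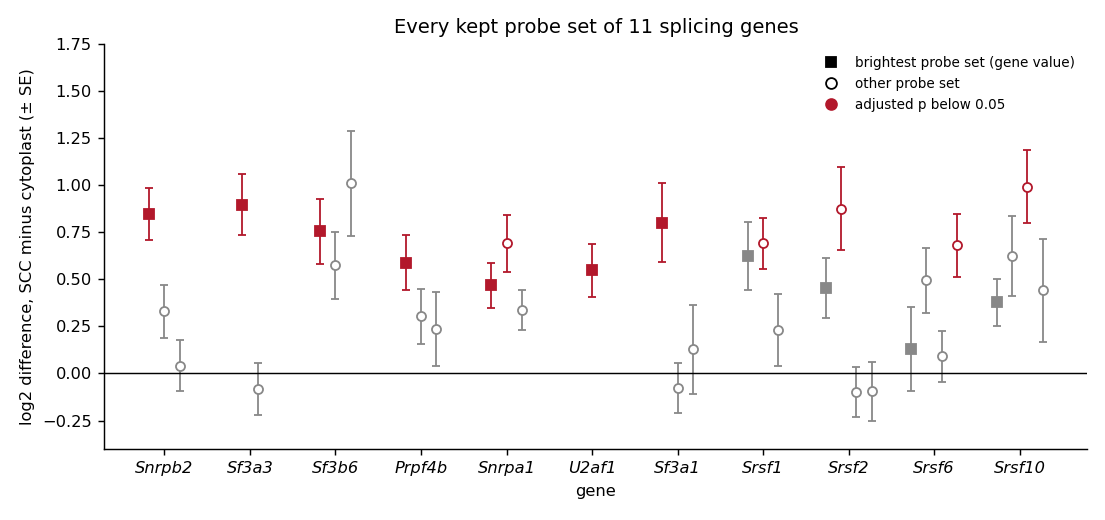
Log2 difference, SCC minus cytoplast, with its standard error, for every kept probe set of the 11 splicing genes with at least 1 that passed; squares are the brightest probe set of the gene, circles the others, red an adjusted p below 0.05 by limma. Snrpb2, Sf3a3, Sf3a1, Sf3b6 and Prpf4b pass on the square alone, and U2af1 has only a square. Snrpa1 passes on the square and on a circle, while Srsf1, Srsf2, Srsf6 and Srsf10 pass on a circle alone.

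Differences also varied with brightness across the whole array. Genes with a mean log2 intensity above 8 had a median difference of 0.28 between the SCC and the cytoplast (2833 genes, 20.5% higher), and the 21 splicing genes among them had a median of 0.26 with 5 higher. Genes at or below 8 had a median of -0.01 (9877 genes, 4.44% higher), and the 21 splicing genes among them had 0.16 with 2 higher. After cyclic loess, the median of the brighter genes was 0.01 and that of the brighter splicing genes 0.02. The median of all 42 was then 0.11, against -0.01 for all genes, of which 2.28% were higher. After quantile normalization it was 0.09, against -0.03 for all genes, of which 1.9% were higher. The direction of all 7 genes was kept under both, and Snrpb2 alone stayed below 0.05 (log2 difference 0.60, limma adjusted p = 0.0229 after cyclic loess, and 0.54, limma adjusted p = 0.0375 after quantile normalization). Sf3a3 had 0.68 (limma adjusted p = 0.0611) and 0.60 (limma adjusted p = 0.0793) under the same settings.

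**Figure D5:**
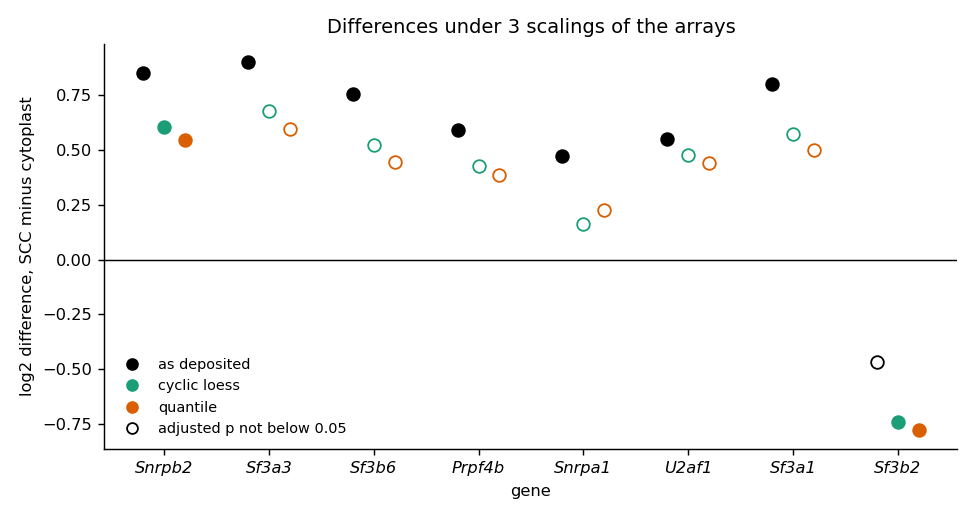
Log2 difference, SCC minus cytoplast, of the 7 genes that passed and of Sf3b2 with values as deposited (black), after cyclic loess (green) and after quantile normalization (orange); open circles have an adjusted p that is not below 0.05 by limma. Each of the 7 moves toward 0 under both, and Sf3b2 moves away from 0.

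Spliceosome genes outside these symbols were counted for comparison. Of 131 tested, 21 were higher in the SCC (all genes 8.03%) and 0 were lower by limma, with 43 (32.8%, all genes 22.3%) at an unadjusted p under 0.05 in either direction and a median log2 difference of 0.14. Hnrnph1, an RNA-binding regulator of splice site choice, averaged 551 ± 79.9 in the SCC, against 260 ± 37.4 in the cytoplast (SD, n = 3 and 4; 2.12-fold, limma adjusted p = 0.00471). Smndc1, a U2 snRNP-associated factor, averaged 773 ± 278 in the SCC, against 319 ± 66.8 in the cytoplast (2.36-fold, limma adjusted p = 0.012 for n = 3 and 4). Rbm17, which contacts SF3b, averaged 508 ± 11.1 in the SCC, against 358 ± 15.5 in the cytoplast (1.42-fold, limma adjusted p = 0.0131 for n = 3 and 4). Hnrnpa0, Cwc22, Pcbp1, Rsrc1, Pdcd7, Hnrnpu and Cwf19l2 completed the 10 with the smallest adjusted p, which ran up to 0.0131. Of the 21, Cwf19l2, Fubp1, Rbm8a and Lsm6 were not well above background on any SCC or cytoplast array. Among branch point and early factors 5 of 16 were higher, among hnRNP proteins and splicing regulators 5 of 34, and among snRNP assembly factors 0 of 11. The count of 21 was 3 without SCC array 2 or 3, 10 without cytoplast array 1 and 12 without cytoplast array 2.

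The MII oocyte holds both fractions, and its comparison with each asks how far either departs from the intact egg. Against the MII oocyte, 0 of 42 splicing genes differed in the SCC by limma, and 0.0472% of all genes did. At an unadjusted p under 0.05 there were 13 of the 42 (31.0%), against 13.3% of all genes. Sf3a3 had the smallest adjusted p (log2 difference 0.76 ± 0.17 SE, limma adjusted p = 0.119), followed by Sf3b6 (0.75 ± 0.18 SE, limma adjusted p = 0.142). Snrpb2 differed by 0.47 ± 0.15 (SE; limma adjusted p = 0.217). Without MII oocyte array 3, 2 genes were higher in the SCC, Sf3b6 and Sf3a3, and 1 lower, Prpf6. The share of all genes that passed without that array is not given for this comparison. These counts are therefore not read as particular to the splicing genes. In the cytoplast against the MII oocyte, 0 of 42 genes differed by limma (0% of all genes), with 6 (14.3%) at an unadjusted p under 0.05, against 4.68% of all genes. The value of Snrpb2 there was -0.38 ± 0.14 (SE; limma adjusted p = 0.926), with every cytoplast array below every MII oocyte array. All 9 SR genes had a negative value there, as did 8150 of all 12710 genes, and the SR median was -0.20. The median over the 42 genes was -0.14, against -0.06 for all genes. After cyclic loess or quantile normalization, 8 of the 9 SR genes were still negative (6779 and 6537 of all genes). The median over the 42 was then 0.0010 and 0.0005. Both comparisons share the MII oocyte arrays. For 24 of 42 genes the mean of the MII oocyte lay between those of the SCC and the cytoplast.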

How the data were processed

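Array intensity values on a linear scale were deposited by the authors for 45101 probe sets on 10 arrays. RMA is named in the submitters' processing notes. Neither its version and settings nor a genome build is given there. The notes do not say how the deposited values came to a linear scale, so log2 was taken before testing. Besides 64 controls, 34945 probe sets had 1 gene in the platform annotation, 932 had several and 9160 had none. Only probe sets with 1 gene were used for names.

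Probe sets above the median of the array on at least 3 arrays were kept (23737). A model with a mean for each of the 3 groups was fitted to every kept probe set (limma 3.58.1 in R 4.3.3, default eBayes). P-values were adjusted by the Benjamini-Hochberg method across the 23737 probe sets and called below 0.05. By rule the text names each member that passed, the member of each role with the smallest p between the SCC and the cytoplast, members with 2 kept probe sets of opposite sign of which 1 passed, and the 10 other spliceosome genes with the smallest p that passed; other members were named after their values were seen. All members and lists were chosen with earlier results of these data known. Background on each array was the 95th percentile of 37 genes of other tissues. A fold is a lower bound where 1 group had no array above it. None is given where neither had, or where that bound did not exceed 1. Such a bound compares group means of log2 values and leaves out the spread between arrays.

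The labels give some groups the same replicate numbers without naming shared animals or pools. The mean residual correlation of 8 same-numbered pairs was 0.0215 (-0.304 to 0.614), so the numbers were not taken as pairs. Spike-in control levels put cytoplast 4, MII oocyte 2 and 4 and SCC 3 in a brighter class and the other 6 arrays in a dimmer one. On data simulated for the SCC against the cytoplast over 23737 probe sets, 40 of 50 changes of log2 1, 34 of 50 of -1, 48 of 50 of 2 and 49 of 50 of -2 were called. Alternatives were another scaling (cyclic loess, quantile), other filters, an offset of 32, the mean of the probe sets of a gene, only the groups compared, a trend in the moderation, the replicate number, the spike-in level, and leaving out each array.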

Additional observations from a re-analysis of the deposited data

Results flagged for a closer look

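Sf3b1 had an intensity of 1837 on cytoplast array 2, set apart from the other cytoplast arrays, which lay between 2420 and 2511. It was the only cytoplast group so set apart among the 32 genes examined, where chance sets apart about 1 in 20 groups.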

How the results depend on the processing

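Of the 7 genes that rose in the SCC against the cytoplast, Snrpb2 passed in all 22 alternatives (log2 difference 0.41 to 0.96), Sf3a3 in 17, Sf3b6 in 16, Prpf4b, Snrpa1 and U2af1 in 12 each, and Sf3a1 in 9; the direction of the 7 was kept in all 22. The counts of splicing genes higher and lower were 1 and 1 after cyclic loess and after quantile normalization, 3 and 0 with a trend in the moderation, 8 and 1 (Snrpn) with the mean of the probe sets or with only the 2 groups compared, 11 and 2 (Sf3b4 and Snrpn) with the spike-in level as covariate or its class as block, and 7 and 2 (Sf3a2 and Sf3b2) within the dimmer spike-in class. With the replicate block they were 7 and 1, the one lower being Sf3a2, and 6 of the 7 higher were shared. With the mean of the probe sets, 4 of the 8 higher were shared, and Prpf4b, Sf3a1 and Sf3a3 did not pass. With only the 2 groups compared, 6 of the 8 higher were shared. Of all genes, 2.28% were higher after cyclic loess, 1.9% after quantile normalization and 6.22% with the trend. The share was 7.92% with the mean of the probe sets, 9.32% with only the 2 groups and 9.12% with the replicate block. It was 13.6% with the covariate, 12.5% with the class as block and 8.9% within the dimmer class. Genes lower there numbered 158, 140 and 199 of 12710. The brighter class held 1 array of the SCC and 1 of the cytoplast and gave no value. Leaving out 1 array gave 1 to 11 higher (all genes 1.2% to 10.2%) and 0 to 1 lower. For the other spliceosome genes, the number higher was 7 after cyclic loess, 6 after quantile normalization, 34 with the covariate, 32 with the class as block and 3 to 26 with 1 array left out, and 1 was lower after quantile normalization, with either spike-in setting and within the dimmer class. Against the MII oocyte, the SCC had 1 splicing gene higher with the covariate and with the class as block. With 1 array left out, 0 to 2 were higher and 0 to 1 lower. The shares of all genes in these settings are not given for that comparison. The median difference of the cytoplast from the MII oocyte was 0.0010 after cyclic loess and 0.0005 after quantile normalization. Of the 42 splicing genes, 5 positive differences, none of them past the threshold, turned negative after cyclic loess, those of Prpf38b (-0.055), Snrpe (-0.14), Srsf3 (-0.084), Srsf6 (-0.12) and U2af2 (-0.14). After quantile normalization 5 did, those of Prpf38b (-0.13), Srsf11 (-0.060), Srsf3 (-0.14), Srsf6 (-0.17) and U2af2 (-0.16), and 0 negative ones turned positive under either. The cause of these changes was not tested. Genes near the background level give bounds or no fold, and 3 or 4 arrays a group limit the rest.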
